A study of Homo sapiens with 24 samples.

Results

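The BCL2 family apoptosis regulators examined here are 10 genes chosen by name, 10 of the 58051 gene identifiers counted in the series, and all 10 were found by symbol in each of the 24 libraries. They were compared between clones of HT29, HCT116 and SW480, which are established human colorectal cancer cell lines. *CTNNB1*, which encodes β-CATENIN, was left unedited in the wild-type (WT) clones. In the knock-out (KO) clones it had been inactivated on both alleles by CRISPR/Cas9 deletion of exon 7. WT here means unedited, since the lines carry mutations of their own. By the study's account these are a gain-of-function mutation of *CTNNB1* in HCT116 and inactivating mutations of *APC* in HT29 and SW480. The clones were HT29 WT 11, WT 40, KO 28 and KO 38, HCT116 WT 4, WT 6, KO 44 and KO 47, and SW480 WT 4, WT 5, KO 17 and KO 21. There were 4 libraries per line and genotype, since each clone was profiled in an RNA-seq round A and in an independent round B (written KO 28A and KO 28B for that clone). All cells were grown in the same medium with fetal calf serum. Each KO clone grew from 1 sorted cell, and the WT clones had also been treated with CRISPR/Cas9 and cloned in the same way. The 4 libraries of a group came from only 2 clones, so the p-values below count rounds of a clone as replicates. Results with the 2 clone means as units are given for the members, except between clones of a genotype. They are not given for the other genes named below.

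BCL2 family proteins set whether the outer mitochondrial membrane is opened, the step that commits a cell to intrinsic apoptosis. Anti-apoptotic members (BCL2, BCL-XL from *BCL2L1*, BCL-W from *BCL2L2*, MCL1) bind and restrain the effectors, such as BAK (*BAK1*), which form the pores. BH3-only proteins (BIM from *BCL2L11*, BID, BIK, BMF and NOXA from *PMAIP1*) antagonise the anti-apoptotic members or engage the effectors. In the intestinal epithelium BCL-XL and MCL1 are known survival factors, and many colorectal tumours depend on BCL-XL. Transcript levels are reported below, and many of these proteins, MCL1 and NOXA among them, are also regulated by degradation.

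The reads counted on genes were 22297049 to 29068378 per library, with a median of 27486226. Values are normalized counts, that is, reads divided by 1 size factor per library, and group values are mean ± SD over 4 libraries. *CTNNB1* was below every WT library in every KO library of its line, with log2 fold changes of −4.33 in HT29, −5.77 in HCT116 and −5.54 in SW480. Summed over 8 epithelial markers, the normalized counts were 322777 to 453709 in HT29 WT and 463035 to 750598 in HT29 KO, which did not overlap, and 131453 to 197512 in the libraries of HCT116 and SW480. *KRT20* was at 3 reads or fewer in the KO libraries of HCT116 and SW480. Of 7 epithelial markers tested per line, 2 passed as higher in HT29 KO and 2 as lower in SW480 KO. In HCT116 KO 2 passed as higher and 2 as lower. Of all tested genes 2.56%, 14.0% and 48.1% passed in HT29, HCT116 and SW480. In HCT116 *CDH1* had means of 1481 in WT and 3323 in KO, and *EPCAM* of 13434 and 18476.5. In SW480 *CDH1* was at 55.6 in WT and 44.0 in KO. Of 9 markers of other cell types, 8 were matched, and *CD68* was at 3 reads or fewer in every group. Their summed level was 15.2 to 27.8 in HT29 WT, 38.2 to 90.1 in HT29 KO, 307 to 466 in HCT116 WT and 342 to 419 in HCT116 KO. In SW480 it was 10823 to 12962 in WT and 25699 to 29299 in KO, nearly all of it *VIM* (vimentin, an intermediate filament gene), while *PTPRC*, *COL3A1* and *DCN* were at 3 reads or fewer in both genotypes. *VWF*, also of this list, had a mean of 20.2 in SW480 WT and 161 in SW480 KO. *CDX2*, an intestinal transcription factor among the epithelial markers, had a mean of 1097 in SW480 WT and 106 in SW480 KO, and of 5.06 and 11.4 in HT29 WT and KO. The part of these marker levels in the results of HT29 and SW480 below was not tested.

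The promoters of 3 members are shown. Those of *BCL2*, which rose in HCT116, and of *BCL2L11*, which fell in HCT116 and rose in SW480, are shown for these results, and 1 of *BID*, which rose in SW480, is shown for its letter match to a TCF/LEF site. TCF/LEF proteins are the DNA-binding partners of β-CATENIN. The sequences are those of RefSeq on GRCh38.p14, each 300 bases from 250 before to 50 after a start site, written 5′ to 3′ on the strand of the gene, with a match in capitals.
*BCL2* chr18:63319720-63320019, minus strand: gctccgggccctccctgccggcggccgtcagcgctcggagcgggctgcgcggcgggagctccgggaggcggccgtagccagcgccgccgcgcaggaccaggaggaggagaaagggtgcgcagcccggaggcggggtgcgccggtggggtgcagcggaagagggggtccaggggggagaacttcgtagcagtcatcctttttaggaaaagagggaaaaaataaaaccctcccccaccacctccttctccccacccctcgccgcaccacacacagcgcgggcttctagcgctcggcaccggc
*BCL2L11* chr2:111120664-111120963, plus strand: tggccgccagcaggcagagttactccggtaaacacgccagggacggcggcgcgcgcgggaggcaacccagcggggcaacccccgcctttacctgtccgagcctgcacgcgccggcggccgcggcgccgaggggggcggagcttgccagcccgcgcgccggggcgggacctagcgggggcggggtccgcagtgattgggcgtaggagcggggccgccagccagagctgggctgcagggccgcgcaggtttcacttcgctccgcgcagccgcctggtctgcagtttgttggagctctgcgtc
*BID* chr22:17773934-17774233, minus strand: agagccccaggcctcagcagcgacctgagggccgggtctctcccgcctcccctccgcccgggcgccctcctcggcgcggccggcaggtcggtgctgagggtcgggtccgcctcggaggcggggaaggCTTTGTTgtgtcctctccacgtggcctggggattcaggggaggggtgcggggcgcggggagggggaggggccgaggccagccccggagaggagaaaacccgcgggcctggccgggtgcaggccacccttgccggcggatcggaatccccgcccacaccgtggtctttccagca
The letters searched on both strands were CTTTGAA and its variants that end in AT (CTTTGAT), in TA (CTTTGTA) or in TT (CTTTGTT), so that no pair of them can match at the same place. Of 35116 promoters in the table, 13.8% held at least 1 of them. The table had 13 promoters for 7 members, and 3 of the 13 held a match. These were 2 overlapping *BID* promoters of the 5 listed for that gene, which share the CTTTGTT shown above, and the *BAK1* promoter with ATCAAAG. The other 3 *BID* windows and those of *BCL2*, *BCL2L1*, *BCL2L11*, *BMF* and *PMAIP1* held none of these letters. A match is only a run of letters, and no binding data were analysed here.

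On GRCh37, the build of the counts, the anti-apoptotic genes lie at chr18:60790579-60987361 (*BCL2*, ENSG00000171791), chr20:30252255-30311792 (*BCL2L1*, ENSG00000171552), chr14:23767999-23780960 (*BCL2L2*, ENSG00000129473) and chr1:150533371-150552214 (*MCL1*, ENSG00000143384). The effector *BAK1* (ENSG00000030110) lies at chr6:33540324-33548070. The BH3-only genes lie at chr2:111876955-111926021 (*BCL2L11*, ENSG00000153094), chr22:18216904-18257536 (*BID*, ENSG00000015475), chr22:43506756-43525718 (*BIK*, ENSG00000100290), chr15:40380091-40401093 (*BMF*, ENSG00000104081) and chr18:57567228-57571537 (*PMAIP1*, ENSG00000141682). Exons of *BCL2L2* overlap the readthrough gene *BCL2L2-PABPN1*, which was at most 12.2 in any library. Exons of *BCL2L11* overlap *MIR4435-2HG*, a long non-coding RNA gene on the opposite strand, and those of *BCL2L1* overlap *ABALON* likewise. Other exon overlaps on the opposite strand are those of *BCL2L2* with *HOMEZ* and *PPP1R3E*, *MCL1* with *ADAMTSL4*, *BAK1* with *GGNBP1* and *BMF* with *BMF-AS1*, and *MCL1* also overlaps *ADAMTSL4-AS1* on its own strand. The strand setting of the counting is not given in the sources used here, so reads from these pairs could not be told apart.

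The WT clones answered which members each line expresses before β-CATENIN is lost. Per kilobase of canonical transcript, *BCL2L1* and *MCL1* were the most abundant members in HT29 and SW480, and *MCL1* and *PMAIP1* in HCT116. *BCL2* itself was the lowest member in HT29 and SW480 and the second lowest, above *BMF*, in HCT116. The WT level of *BCL2L1* was 2145 ± 595 normalized counts per kb in HT29, 1123 ± 242 in HCT116 and 3415 ± 295 in SW480. *MCL1* was at 1705 ± 153, 1601 ± 157 and 1437 ± 87.6 per kb in the same order of lines. *BCL2* was at only 2.75 ± 0.923, 8.78 ± 1.01 and 10.5 ± 0.463 per kb.

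In HT29 the order per kb was *BCL2L1*, *MCL1*, *BID*, *BAK1*, *BCL2L2*, *BCL2L11*, *PMAIP1*, *BIK*, *BMF* and *BCL2*. The libraries of *BCL2L1* and *MCL1* overlapped, as did those of *BCL2L11* and *PMAIP1* and those of *BIK* and *BMF*, and the other neighbours were separate. In HCT116 it was *MCL1*, *PMAIP1*, *BCL2L1*, *BID*, *BIK*, *BAK1*, *BCL2L2*, *BCL2L11*, *BCL2* and *BMF*. There the first 4 genes formed a chain of overlapping neighbours, and *BIK* overlapped *BAK1* and *BCL2L2* overlapped *BCL2L11*. In SW480 the order was *BCL2L1*, *MCL1*, *BID*, *PMAIP1*, *BAK1*, *BIK*, *BCL2L2*, *BCL2L11*, *BMF* and *BCL2*, and only *BAK1* and *BIK* overlapped. With the length of all exons in place of the canonical transcript, *PMAIP1* moved to the first place in HCT116 and above *BID* in SW480, and the order in HT29 was the same.

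**Figure D1:**
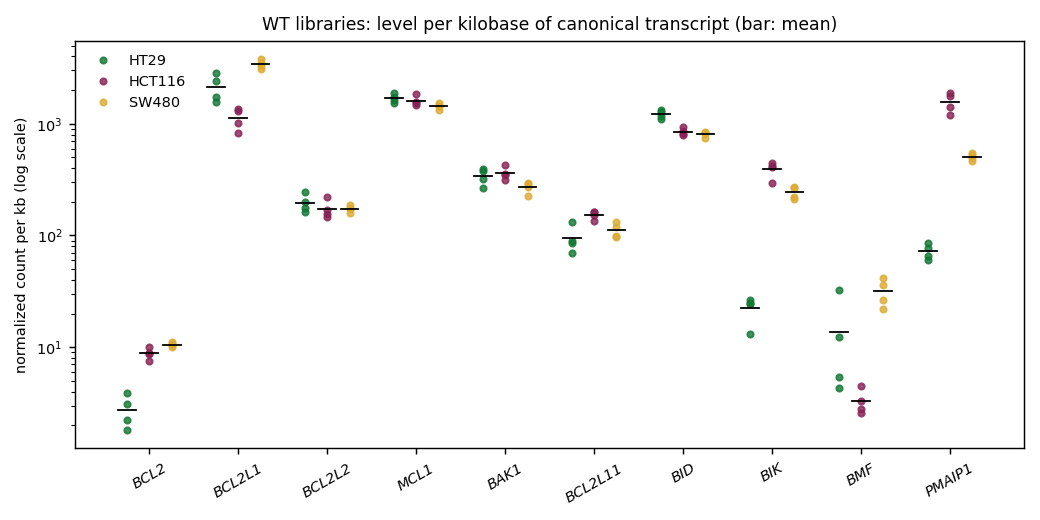
Level of the 10 members in the 12 WT libraries, as normalized count per kb of canonical transcript on a log axis, with 4 points per line (HT29 green, HCT116 purple, SW480 yellow) and a bar at their mean. *MCL1* and *BCL2L2* did not pass between any lines, whereas *BIK* and *PMAIP1* are lowest in HT29 and *BMF* in HCT116.

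By the largest of its 3 differences between lines, *PMAIP1* came first among the members, then *BIK* and *BMF*, all BH3-only genes. *PMAIP1* (NOXA) had WT normalized counts of 148, 124, 163 and 115 in HT29, where values here and below run from the clone with the lower number, rounds A and B, to the other clone. The HCT116 values were 2662, 2273, 3368 and 3556 and the SW480 values 1007, 874, 941 and 1039. None of the 3 lines overlapped another. The WT difference in log2 level of *PMAIP1* was −4.41 ± 0.283 (SE, adjusted p = 5.7e-12) for HT29 minus HCT116, −2.81 ± 0.283 (SE, adjusted p = 1.0e-08) for HT29 minus SW480 and 1.598 ± 0.283 (SE, adjusted p = 3.9e-05) for HCT116 minus SW480.
*BIK*, whose protein sits mainly at the endoplasmic reticulum, was at 23.04, 25.3, 23.7 and 12.5 in HT29 WT against 387, 277, 427 and 399 in HCT116 and 254, 210.4, 257 and 202 in SW480. HT29 was thus below every library of the other lines, with differences of −4.104 ± 0.468 (SE, adjusted p = 9.1e-08) from HCT116 and −3.42 ± 0.468 (SE, adjusted p = 1.2e-06) from SW480. *BMF*, whose protein is tethered to the myosin motor by dynein light chain, was at 20.2, 25.3, 57.3 and 153 in HT29 WT, at 15.6, 12.99, 12.01 and 20.9 in HCT116 WT and at 102, 125, 197 and 169 in SW480 WT. HCT116 was below every SW480 library, with a difference of −3.17 ± 0.490 (SE, adjusted p = 6.7e-06). HT29 WT 11A reached down into the HCT116 range and WT 40B up into that of SW480.

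Among the anti-apoptotic genes, *BCL2* was lower in HT29, with a difference of −1.67 ± 0.302 (SE, adjusted p = 5.2e-05) against HCT116 and of −1.94 ± 0.302 (SE, adjusted p = 7.3e-06) against SW480. *BCL2L1* was lower in HCT116 than in SW480 (−1.63, adjusted p = 1.5e-05), and HT29 lay between them, with 0.92 against HCT116 (adjusted p = 0.00516) and −0.71 against SW480 (adjusted p = 0.0258). The latter was lost in edgeR (adjusted p = 0.0507), and without clone HT29 WT 40 it was −0.38 (adjusted p = 0.331). *MCL1* and *BCL2L2* did not pass between any lines. The 95% intervals for *MCL1* were −0.20 to 0.38 for HT29 minus HCT116, −0.049 to 0.54 for HT29 minus SW480 and −0.14 to 0.45 for HCT116 minus SW480, all on the log2 scale. In total 7 of 10 members passed for HT29 minus HCT116, 6 for HT29 minus SW480 and 4 for HCT116 minus SW480. The shares of all tested genes that passed were 58.4%, 60.3% and 60.5%, so that members passed about as often as other genes. With clone means as units the calls of *BMF* and *BCL2L1* against HT29 and that of *BAK1* between HCT116 and SW480 were lost. Single libraries also ended the *BMF* call of HT29 minus HCT116 (without HT29 WT 40B), the *BCL2L1* call of HT29 minus SW480 (without HT29 WT 40A or 40B or SW480 WT 4A or 4B) and the *BAK1* call (without HCT116 WT 4A or SW480 WT 5A), at adjusted p = 0.0504 or above. *BCL2L11* between HCT116 and SW480, at adjusted p = 0.0577, passed without HCT116 KO 44A or 47B, HT29 KO 38B, WT 11B or WT 40A or SW480 WT 5B, and *BAK1* between HT29 and SW480 passed without HT29 WT 11A.

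Summed per kb, the 4 anti-apoptotic transcripts were 3620.2 to 4564 in HT29 WT libraries, 2582 to 3278 in HCT116 and 4593 to 5516 in SW480. *BCL2L1* made up 67.03 to 68.4% of this sum in SW480, 42.9 to 62.6% in HT29 and 32.05 to 44.98% in HCT116. *BCL2* contributed 0.0419 to 0.105%, 0.228 to 0.340% and 0.181 to 0.241% in HT29, HCT116 and SW480. The BH3-only sum was led by *BID* in HT29, at 82.2 to 88.8% of the 5 genes, and by *PMAIP1* in HCT116, at 48.7 to 57.5%. In SW480 *BID* held 44.5 to 50.6% and *PMAIP1* 28.3 to 31.3%.

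The ratio of the BH3-only to the anti-apoptotic sum in WT libraries was 0.952 to 1.09 in HCT116, above 0.300 to 0.403 in HT29 and 0.317 to 0.364 in SW480. In KO libraries it was 0.270 to 0.387 in HT29, which overlapped WT, and 0.443 to 0.610 in SW480, above every WT library. In HCT116 the 2 KO clones went apart, with 0.945 and 1.01 in KO 44 and 1.51 and 1.96 in KO 47. With the length of all exons the ratio in SW480 was 0.351 to 0.417 in WT and 0.516 to 0.691 in KO, and these again did not overlap. These sums hold only the members, without other BH3-only genes such as *BAD* and *BBC3*. They describe transcripts and were not tested. By the study's account, KO clones of HT29, HCT116 and SW480 reached lower cell counts than WT clones, and not through increased apoptosis. Cell death was not measured here. In bulk RNA, fewer cells that express a gene and less RNA per cell cannot be told apart.

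**Figure D2:**
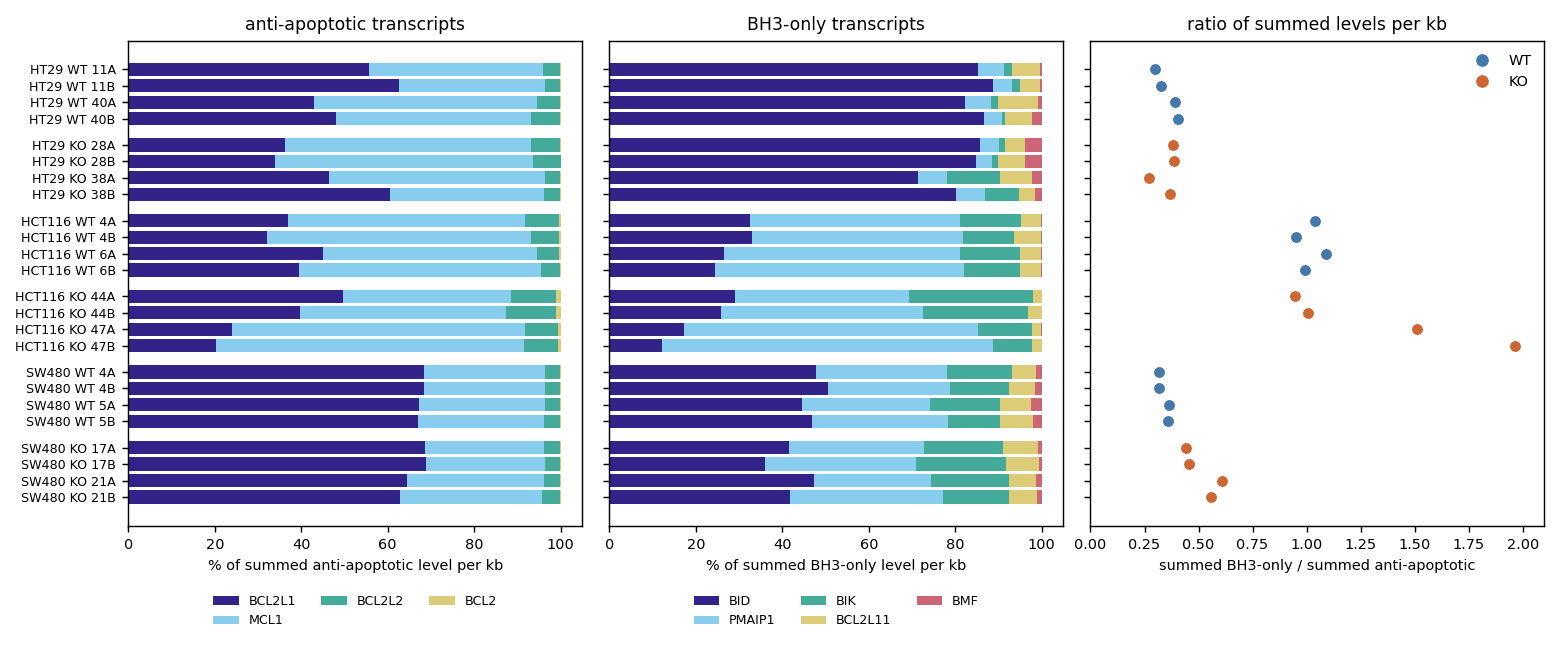
Composition of the 4 anti-apoptotic (left) and 5 BH3-only transcripts (middle) as percent of their summed level per kb in each of the 24 libraries, and the ratio of the BH3-only to the anti-apoptotic sum (right, WT blue, KO orange). *BID* fills most of the BH3-only sum in HT29 and *PMAIP1* the most in HCT116, and the ratio is highest in HCT116 KO 47A and 47B.

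The effect of *CTNNB1* loss was first compared in HT29, where no member passed (0 of 10, against 2.56% of all tested genes), and 1 had an unadjusted p under 0.05. The count was also 0 in edgeR and in DESeq2. *BMF* had the largest estimate, 2.01 ± 0.623 (SE, adjusted p = 0.146), with values of 20.2, 25.3, 57.3 and 153 in the WT libraries and 282, 281, 128 and 128 in the KO libraries. The KO clones lay at 128 or above, yet WT 40B at 153 lay among them, and without clone WT 40 the difference passed at 3.02 (adjusted p = 0.0317). *BIK* was at 23.04, 25.3, 23.7 and 12.5 in the WT libraries and 19.1, 18.6, 149 and 126 in the KO libraries. Only KO 38 was above the WT range, KO 28 was within it, and the estimate was 1.29 ± 0.725 (SE, adjusted p = 0.412). It passed without KO 28, at 2.68 (adjusted p = 0.0131).

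*MCL1* in HT29 was at 6899.9, 6092, 7496 and 6453 in the WT libraries and 9149.9, 9379.8, 9354 and 6390.4 in the KO libraries, so that 3 KO libraries were above all WT libraries and KO 38B was not (0.33 ± 0.166 SE, adjusted p = 0.36). The log2 fold changes of the other members in HT29 ranged from −0.25 (*BCL2*) to 0.43 (*BAK1*). Their intervals were wide, and for *BCL2* the 95% interval ran from −1.200 to 0.70. No member had WT and KO libraries that did not overlap, against 13.0% of tested genes.

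In HCT116, 3 members rose and 1 fell in KO clones, 4 of 10 against 14.0% of tested genes, of which 8.05% rose and 5.93% fell. The median log2 fold change of the members was 0.036 beside −0.014 over all tested genes. *BCL2* rose 2.85-fold on the log2 scale of the test, from 60.4 ± 6.97 to 184 ± 71.3, and was the only member past an absolute log2 fold change of 1, against 5.06% of tested genes past both thresholds. Its values were 61.5, 60.3, 68.4 and 51.4 in the WT libraries and 249, 242, 125 and 119 in the KO libraries. All KO libraries were above all WT libraries, and KO 44 was the higher KO clone. The log2 fold change was 1.51 ± 0.269 (SE, adjusted p = 0.00399). Even so, *BCL2* supplied only 0.588 to 1.15% of the anti-apoptotic sum per kb in the KO libraries.

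*BCL2L2* (BCL-W) in HCT116 was at 777, 591, 546 and 511 in the WT libraries and 1178, 1238, 747 and 828 in the KO libraries, with WT 4A above KO 47A, and rose by 0.70 ± 0.189 (SE, adjusted p = 0.0305). *BIK* was at 387, 277, 427 and 399 in the WT libraries and 823, 710.3, 507 and 493 in the KO libraries. Every KO library exceeded every WT library, and the change was 0.75 ± 0.196 (SE, adjusted p = 0.0272). *BCL2L11* (BIM), a BH3-only gene that FOXO factors can induce, fell, from 681, 779, 834 and 825 in WT to 302, 482, 449.6 and 638 in KO libraries. Here also the groups did not overlap, and the change was −0.78 ± 0.196 (SE, adjusted p = 0.0225). *MIR4435-2HG*, whose exons overlap those of *BCL2L11*, went the other way, with 187 to 409 in WT and 501 to 742 in KO libraries, and its part in the *BCL2L11* value was not tested.

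Of the 10 members, 3 had HCT116 groups that did not overlap, against 20.5% of tested genes. The other 6 did not pass, with *PMAIP1* at 0.50, *BCL2L1* at −0.23 and *BMF* at −0.87, the latter at 4 to 22 reads per library, where the added 1 of the log scale shrinks a change. Without clone KO 47 *BMF* passed at −1.39 (adjusted p = 0.0432). With the 2 clone means per genotype as units no HCT116 member passed, at adjusted p = 0.0679 for *BCL2*, 0.109 for *BCL2L11*, 0.173 for *BIK* and 0.197 for *BCL2L2*. *BCL2* passed with any library or clone left out. The other 3 lost the call without WT 4B and WT 6B, *BCL2L2* and *BCL2L11* without WT 6A, and *BCL2L2* and *BIK* without KO 44A and KO 44B, at adjusted p = 0.0531 or above. Leaving out the whole of clone KO 44 or of clone WT 6 also ended these 3 calls, as did the clone as a random effect. Without clone WT 4 the calls of *BCL2L11* (adjusted p = 0.0593) and *BIK* (adjusted p = 0.125) were lost.

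**Figure D3:**
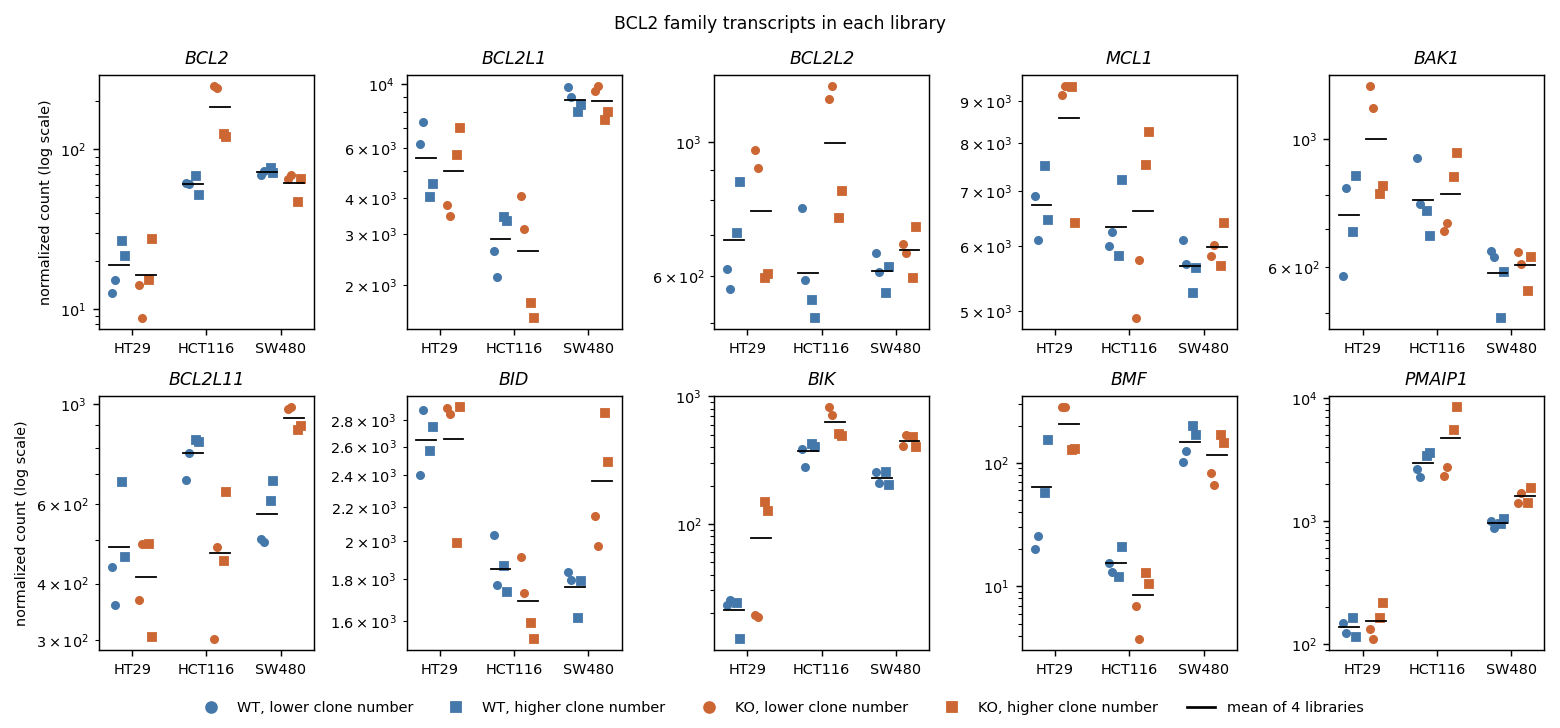
Normalized count (log axis) of each member in the 24 libraries, by line, WT blue and KO orange, circles for the clone with the lower number and squares for the other clone, with a bar at the mean of 4 libraries. *BCL2* and *BIK* in HCT116 and *BCL2L11*, *BID*, *BIK* and *PMAIP1* in SW480 show KO libraries above all WT libraries, and *BIK* in HT29 is high only in KO 38.

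In SW480, 4 BH3-only genes rose and no member fell, 4 of 10 against 48.1% of tested genes (26.1% rose and 22.1% fell), so the family changed about as often as the other genes there. The 4 members also had groups that did not overlap, against 46.2% of tested genes. *BIK* was at 254, 210.4, 257 and 202 in the WT libraries and 412, 502, 478 and 403 in the KO libraries. It rose 1.94-fold on that scale, a log2 fold change of 0.96 ± 0.121 (SE, adjusted p = 9.8e-05). *BCL2L11* was at 502, 493, 610.0 and 676 in the WT libraries and 977, 985, 876 and 896 in the KO libraries. All 4 KO libraries lay between 876 and 985, above the highest WT value of 676, with a change of 0.72 ± 0.110 (SE, adjusted p = 0.000371). *MIR4435-2HG* did overlap, at 2535 to 2999.8 in WT and 2532 to 3403 in KO libraries of SW480.

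*PMAIP1* in SW480 was at 1007, 874, 941 and 1039 in the WT libraries and 1402, 1675, 1410.0 and 1845 in the KO libraries, and rose by 0.71 ± 0.103 (SE, adjusted p = 0.000257). *BID*, which caspase-8 cleaves to link death receptors to mitochondria, was at 1834, 1794, 1617 and 1790.0 in the WT libraries and 2146, 1971, 2855 and 2493 in the KO libraries. Its rise was the smallest of the 4, 0.41 ± 0.109 (SE, adjusted p = 0.00992), and KO 21 was above KO 17. The 4 anti-apoptotic genes and *BAK1* did not pass. Their 95% intervals on the log2 scale were −0.62 to 0.12 for *BCL2*, −0.24 to 0.20 for *BCL2L1*, −0.079 to 0.31 for *BCL2L2*, −0.074 to 0.23 for *MCL1* and −0.18 to 0.27 for *BAK1*. *BMF* was the BH3-only gene that did not pass (−0.42 ± 0.315 SE, adjusted p = 0.302), although without clone KO 21 it passed at −0.95 (adjusted p = 0.0139). With clone means as units *BIK*, *BCL2L11* and *PMAIP1* passed and *BID* did not (adjusted p = 0.111), and *BID* also lost the call without clone WT 5.

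**Figure D4:**
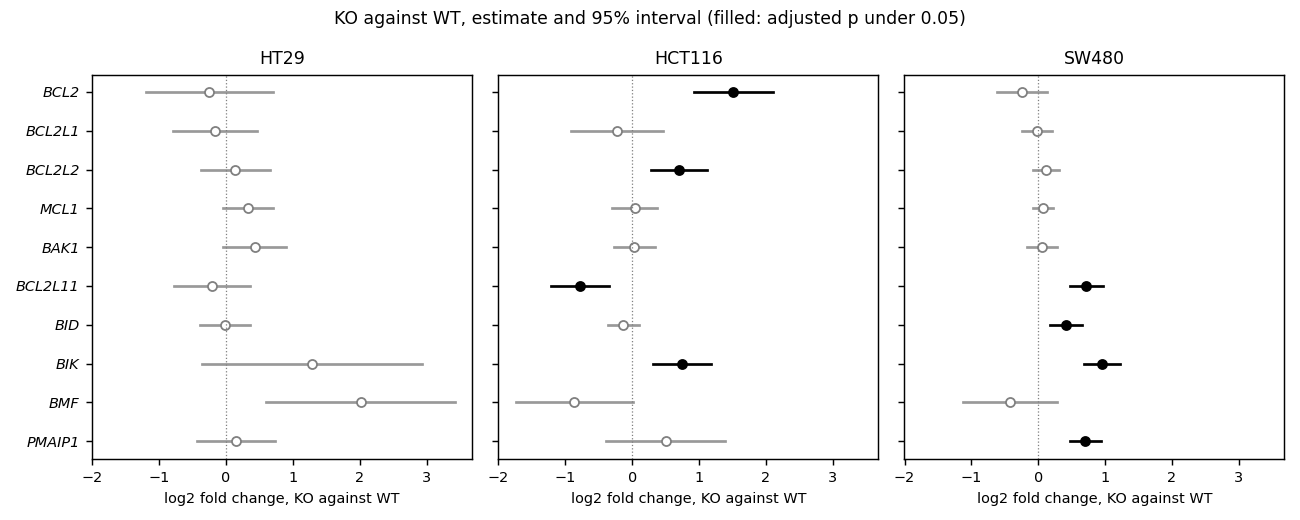
Log2 fold change of each member, KO against WT, with its 95% interval, in HT29, HCT116 and SW480 (filled points passed at an adjusted p under 0.05). No member passed in HT29, 4 passed in HCT116, of which *BCL2L11* is below 0, and 4 BH3-only genes passed in SW480, all above 0.

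Whether the lines responded differently was tested as the difference of their KO effects. The *BCL2* effect was higher in HCT116 than in the other lines, with a difference of 1.76 ± 0.427 (SE, adjusted p = 0.00658) for HCT116 minus SW480 and of −1.76 ± 0.427 (SE, adjusted p = 0.0124) for HT29 minus HCT116. The *BCL2L11* effect was lower in HCT116 than in SW480, with a difference of −1.501 ± 0.289 (SE, adjusted p = 0.000857), and this call held in all 45 alternatives. It was also lower in HT29 than in SW480, with a difference of −0.93 ± 0.289 (SE, adjusted p = 0.0297). *BMF* differed between HT29 and HCT116 by 2.88 ± 0.692 (SE, adjusted p = 0.0117) and between HT29 and SW480 by 2.43 ± 0.692 (SE, adjusted p = 0.0178). *BID* differed between HCT116 and SW480 by −0.55 ± 0.181 (SE, adjusted p = 0.0472), a call that was lost in 29 of 45 alternatives. Without HCT116 clone KO 44 the *BCL2* differences did not pass (adjusted p = 0.072 against SW480 and 0.11 against HT29), and without HT29 clone WT 11 neither did those of *BMF* (0.0624 against HCT116 and 0.129 against SW480). The *BCL2L11* difference between HT29 and SW480 was lost without HT29 KO 28A, KO 38B or WT 40A or SW480 KO 17A, KO 17B, WT 4A or WT 4B.

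*BIK* did not pass this test between any lines, and its 95% interval of −1.58 to 1.16 for HCT116 minus SW480 leaves room for a difference in either direction. Between HT29 and SW480 the *BIK* difference was 0.33, and it passed at −1.07 without HT29 clone KO 38 and at 1.72 without KO 28. Between HT29 and HCT116 it was 0.54, and without KO 28 it passed at 1.94 (adjusted p = 0.000371). For *PMAIP1* the interval of HCT116 minus SW480 was −1.03 to 0.63. Members passing were 2 for HT29 minus HCT116, 2 for HT29 minus SW480 and 3 for HCT116 minus SW480, against 7.25%, 15.8% and 13.2% of all tested genes. With clone means as units the only difference that passed was that of *BCL2L11* between HCT116 and SW480.

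A change common to the lines was sought over the 12 clone means with the line as a term. No member passed (0 of 10, against 2.09% of tested genes), and 1 had an unadjusted p under 0.05. That member was *BIK*, at 1.00 ± 0.380 (SE, adjusted p = 0.17). Of the 6 KO clones, 5 were above the WT clones of their line in *BIK*, and HT29 KO 28 was not. Every other member had a log2 fold change between −0.14 and 0.45. The count was 0 in each round alone and with edgeR on the reads of a clone summed.

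Clones of the same line and genotype differed in several members. Differences are given as the clone with the lower number minus the other. In HT29, *BIK* was 6.95-fold lower in KO 28 than in KO 38 (−2.796 ± 0.381 SE, adjusted p = 0.00259). *BCL2L1* was also lower in KO 28 (−0.80 ± 0.188 SE, adjusted p = 0.0265), at 3804, 3476, 5659.9 and 7054 in KO 28A, 28B, 38A and 38B. Among the WT clones *BMF* was lower in WT 11 than in WT 40 (−2.004 ± 0.429 SE, adjusted p = 0.0266). These were 2 members in KO and 1 in WT clones, against 16.0% and 9.02% of tested genes. The *BCL2L1* call was lost without KO 28A, KO 28B or any WT library of HT29, and the *BMF* call without KO 28A, KO 28B, WT 11A, WT 11B or WT 40B. Other members passed between the KO clones with 1 library left out, namely *BCL2L2* without KO 38A or KO 38B, *MCL1* and *PMAIP1* without KO 38A, *BID* without KO 38B and *BMF* without WT 40A or WT 40B, and *BCL2L1* passed between the WT clones without KO 38A or KO 38B.

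The HCT116 KO clones differed in 5 of 10 members, against 7.16% of tested genes, and the WT clones in none, against 2.61% (3 with an unadjusted p under 0.05, and 0 passing in edgeR and in DESeq2). *BCL2L1* was higher in KO 44, at 4094, 3128, 1734 and 1542 in KO 44A, 44B, 47A and 47B (1.13 ± 0.155 SE, adjusted p = 0.00215). *MCL1* went the other way, at 4909.8, 5763, 7521 and 8253 (−0.57 ± 0.134 SE, adjusted p = 0.0316). *BCL2L1* held 49.6% and 39.7% of the anti-apoptotic sum per kb in KO 44 and 23.99% and 20.4% in KO 47, while the sum itself was within 2808 to 3204. *PMAIP1*, whose product NOXA binds MCL1, was higher in the clone with more *MCL1*, at 2319, 2736, 5488 and 8406 in the same libraries (−1.43 ± 0.186 SE, adjusted p = 0.00152).

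*BCL2* (1.001, adjusted p = 0.0226) and *BCL2L2* (0.62, adjusted p = 0.0393) were higher in KO 44. With KO 44 left out, *PMAIP1* passed against WT at 1.22 (adjusted p = 0.00873) and *BCL2L1* at −0.79 (adjusted p = 0.0367). As rounds paired libraries in HCT116, the round was also set as a block, and then 8 members differed between the KO clones and 2 between the WT clones. Calls over all genes rose with the block too. Of 15404 tested genes, 3317 passed between the KO clones (1103 without the block) and 2501 between the WT clones (402 without it). Without KO 44A, KO 44B or KO 47B only 2 of the 5 calls between KO clones were left, those of *BCL2L1* and *PMAIP1*, and *BCL2L2* also lost its call without KO 47A, WT 6A or WT 6B. *BIK* passed between the KO clones without WT 4A or WT 4B.

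In SW480 the KO clones differed in *BMF* (−1.06 ± 0.193 SE, adjusted p = 0.000686), *BID* (−0.38 ± 0.0843 SE, adjusted p = 0.0034) and *BCL2L1* (0.31 ± 0.0700 SE, adjusted p = 0.00338), 3 of 10 against 28.0% of tested genes. The WT clones differed in *BMF* (−0.69 ± 0.193 SE, adjusted p = 0.0336) and *BCL2L11* (−0.37 ± 0.0902 SE, adjusted p = 0.0155), 2 of 10 against 8.88%. *BMF* was lower in KO 17, at 82.8, 66.1, 168 and 144 in KO 17A, 17B, 21A and 21B, with KO 21 in the WT range. Both WT calls were lost without WT 4A or WT 5B, that of *BCL2L11* also without WT 4B and that of *BMF* without WT 5A. Of the KO calls only *BMF* was left without KO 17B, and *BID* was lost without KO 21A.

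Beyond the members, 60 genes of the apoptotic machinery and its regulators were compared, from lists chosen by function. Of these, 55 were tested in HT29 and SW480 and 54 in HCT116. In HT29 3 were higher and 1 lower, in HCT116 2 higher and 4 lower, and in SW480 21 higher and 10 lower in KO clones. Of all tested genes, 2.56% passed in HT29, 14.0% in HCT116 and 48.1% in SW480, and the counts of each list below are to be read against these shares. These calls count rounds of a clone as replicates. With clone means as units 0 of 14921 tested genes passed in HT29, so every HT29 call below was lost there. The passing genes of the death receptor list in SW480 were 8 higher and 1 lower of 12, where 26.1% of all tested genes were higher and 22.1% lower, with a median log2 fold change of 0.52 beside −0.0042 over all tested genes. *TNFSF10*, which encodes the death ligand TRAIL, rose in SW480 from 41.8 ± 18.1 to 574 ± 179 (log2 fold change 3.79, adjusted p = 4.3e-06). It also rose in HT29, from 67.3 ± 14.96 to 537 ± 360.3 (log2 fold change 2.76, adjusted p = 0.0168). *TNFRSF1A*, a receptor of TNF, rose in HCT116 from 1919 ± 172 to 4793 ± 286 and in SW480 from 2419 ± 151 to 4638 ± 134. *TNFRSF10B*, a receptor of TRAIL, rose in SW480 from 1896 ± 146 to 3318 ± 257, as did *CFLAR*, which encodes the caspase-8 inhibitor c-FLIP, from 865 ± 60.8 to 1601 ± 117. The lower gene was *FASLG*, from 66.4 ± 20.3 to 4.20 ± 1.57.

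In the list of caspases and the apoptosome, 4 genes were higher and 1 lower of 9 in SW480, about the share of all tested genes that passed there (48.1%). *CASP8*, the initiator caspase that cleaves BID, rose from 1029 ± 25.9 to 1698 ± 86.9 (log2 fold change 0.72, adjusted p = 7.4e-06). *CASP9*, the initiator caspase of the apoptosome, fell in SW480 from 586 ± 83.4 to 369 ± 30.9 and rose in HT29 from 268 ± 25.02 to 513 ± 63.2 (adjusted p = 0.000756 and 0.0269). *APAF1*, the apoptosome scaffold, fell in HCT116 from 511 ± 144 to 306 ± 67.05 (log2 fold change −0.73, adjusted p = 0.0411) and rose in SW480 from 780.0 ± 86.5 to 1014 ± 185 (log2 fold change 0.37, adjusted p = 0.0438). Inhibitors of apoptosis and their antagonists had 3 higher and 1 lower of 7 tested in SW480, also near that share, and none passed of 7 tested in HT29 or in HCT116. *BIRC3*, encoding cIAP2, rose 13.6-fold on the log2 scale, from 60.5 ± 23.8 to 810.2 ± 188, and its relative *BIRC2* from 1229 ± 49.2 to 2023 ± 259. *XIAP* was the other higher gene, and *BIRC5*, encoding survivin, the lower one, from 5173 ± 216 to 3990.5 ± 824.

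Among 13 other genes of the BCL2 family, 1 of 11 tested was higher in HT29, 2 of 10 were lower in HCT116, and 3 were higher and 4 lower of 9 in SW480, beside 2.56%, 14.0% and 48.1% of all tested genes that passed. *BCL2L15*, a family gene expressed in the gastrointestinal tract, showed the largest change of any BCL2 family gene tested in SW480, and fell 52.4-fold on the log2 scale, from 3393 ± 172 to 69.3 ± 32.1 (log2 fold change −5.71, adjusted p = 2.1e-07). It was low in HCT116, where it fell from 15.4 ± 3.40 to 6.15 ± 2.13, and in HT29 it did not pass (log2 fold change −0.90, adjusted p = 0.371). *BNIP3L*, a mitophagy receptor, rose in SW480 from 2798 ± 233 to 5429 ± 279, and *BAD*, a BH3-only gene, from 499 ± 59.2 to 781 ± 67.4. *BBC3*, the BH3-only gene for PUMA, fell there from 134 ± 9.57 to 77.6 ± 20.8. The others in SW480 were *BCL2L13*, which was higher, and *BOK* and *BCL2L12*, which were lower. *BCL2L12* fell in HCT116 from 1525 ± 147 to 1061 ± 261 (log2 fold change −0.55, adjusted p = 0.0453). *BCL2L10* rose in HT29 at a low level, from 10.1 ± 6.26 to 53.04 ± 22.02.

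Among partners that tether or degrade members, *DYNLL2*, the dynein light chain that holds BMF, fell in HCT116 from 7953 ± 872 to 5571 ± 504 (log2 fold change −0.51, adjusted p = 0.0086), and *BTRC*, a ubiquitin ligase component, rose in SW480 from 539 ± 27.3 to 697 ± 39.8. Of 10 transcription regulators, *FOXO1* rose in HCT116 from 266 ± 86.02 to 496 ± 52.4 and fell in SW480 from 294 ± 39.8 to 159 ± 26.05. In SW480 *STAT3* was also higher and *FOXO3* lower, and *ATF4*, a regulator of stress responses, fell from 7229.8 ± 517 to 5249 ± 252. *TP73* fell in HT29 from 283 ± 32.7 to 131 ± 39.4 (log2 fold change −1.15, adjusted p = 0.0488).

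Genes whose pattern was most like that of a member over the 12 clone means were named for the 6 members with a passing KO effect. By Pearson's r of the log2 level, given as a description, these were *ODAD1* (0.952) and *DIPK2A* (0.952) for *BCL2*, *DDR1* (0.857) and *CAB39* (0.816) for *BCL2L2*, and *GASAL1* (0.914) and *RBPJ* (0.903) for *BCL2L11*. They were *KLK10* (0.963) and *SLC30A9* (0.943) for *BID*, *SGSM2* (0.984) and *NEURL1* (0.981) for *BIK*, and *NKIRAS1* (0.989) and *NOVA2* (0.988) for *PMAIP1*. The 12 points share 3 lines, so they are not independent.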

How the data were processed

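RNA of 24 libraries was prepared with the TruSeq RNA kit, and the submitters' processing notes name GRCh37, STAR 2.7.5b and featureCounts 2.0.1. The deposited values are a signal, namely gene counts that the authors divided by 1 size factor per library, and all values were whole multiples of the smallest one, within 0.01 of a whole number, for every gene in 24 of 24 libraries. The deposited tables of the authors' own comparisons (fold changes and p-values) were not used. The 10 members and all lists were chosen with earlier results of these data known.

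As the values are not raw counts, limma 3.58.1 (trend, robust) was run on log2 of the value plus 1, for genes with at least 10 in at least 4 libraries of the fit, in place of edgeR. A gene passed at a Benjamini-Hochberg adjusted p under 0.05 over all tested genes. KO was compared with WT within lines, clones within a genotype, and KO effects and WT levels between lines. Fold changes are on this log2 scale and understate those of low genes. Positions and the length of the canonical transcript came from a GENCODE annotation lifted to GRCh37, and 95.8% of identifiers had a symbol. Floors cover counting error only. Named genes outside the members were, per list and line, the 2 passing genes with the largest change, a mean of at least 100 and groups that did not overlap. Of the lists, 2 genes enter the counts and are not reported here by name. All other genes named from the lists, the markers and the overlapping genes were named after their values had been seen.

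Rounds were taken to pair libraries where the A minus B differences of every pair of clones (6 pairs a line) correlated over 0.1 across genes, which held in HCT116 (0.182 to 0.374) and not in HT29 (−0.309 to 0.424) or SW480 (−0.0411 to 0.127). Alternatives were pseudocounts of 0.1 and 5, other filters, the round as a block, edgeR 4.0.16 and DESeq2 1.42.0 on the recovered reads (by edgeR, HT29 had 264 genes higher and 63 lower in KO, HCT116 had 1303 higher and 911 lower, and SW480 had 4177 higher and 3670 lower), clone means, the clone as a random effect, and each library and clone left out. Leaving out libraries in clone comparisons, and the length of all exons, were added after seeing the data. On simulated data, limma was tested for KO against WT, KO clones, a difference of KO effects and a WT level. For edgeR, DESeq2, clone means and the clone as a random effect this was done for HT29 KO against WT only. The other fits, among them the common change over the lines, were not simulated. Beyond the changes put in, clones of a genotype did not differ in the simulation. It therefore could not test the p-values that count rounds as replicates. R 4.3.3, Python 3.11.15, numpy 2.4.6, pandas 2.3.3 and matplotlib 3.10.9 were used.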

Additional observations from a re-analysis of the deposited data

Results flagged for a closer look

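In 60 groups of 4 libraries (10 members, 3 lines, 2 genotypes) a lone library was looked for by Dixon's ratio, the gap to the nearest library over the range of the group. Chance flags about 5% of groups, and 2 were found. *MCL1* in HT29 KO 38B, at 6390 against 9150 to 9380 in the other libraries of the group, had a ratio of 0.923. *BID* in HT29 KO 38A, at 1987 against 2845 to 2902, had a ratio of 0.939. Both libraries are of clone KO 38.

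KO effects that differed between lines by the test of the difference were 7. On the log2 scale *BCL2* differed by −1.76 for HT29 minus HCT116 and by 1.76 for HCT116 minus SW480, and *BMF* by 2.88 for HT29 minus HCT116 and by 2.43 for HT29 minus SW480. *BCL2L11* differed by −0.93 for HT29 minus SW480 and by −1.501 for HCT116 minus SW480, and *BID* by −0.55 for HCT116 minus SW480. The comparisons share the libraries of a line, so they are not independent of each other.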

How the results depend on the processing

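Over 4430 repeats of 160 gene results, 4224 kept direction and side of the threshold, 148 lost a call, 57 gained one and 1 turned. The one that turned was *BIK*, HT29 minus SW480 KO effect, at −1.07 without clone HT29 KO 38 (adjusted p = 0.0259), in a range from −1.07 to 1.72 over libraries and clones left out.

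Members passing KO against WT in HCT116 fell from 4 to 0 with clone means and 1 with the clone as a random effect, and ranged from 1 to 5 with libraries or clones left out. In HT29 that range was 0 to 1. The difference HT29 minus HCT116 went from 2 to 0 with at least 10 in every library, with clone means and with the clone as a random effect (1 to 4 with libraries or clones left out). HT29 minus SW480 went from 2 to 1 with no filter and with at least 10 in every library, and to 0 with clone means and the clone as a random effect (1 to 3). HCT116 minus SW480 went from 3 to 1 with at least 10 in every library and with clone means. With at least 10 in every library *BCL2* and *BMF* were not among the genes tested.

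Between clones, DESeq2 gave 2 members in HT29 WT and 4 in HT29 KO (0 to 2 and 1 to 5 with libraries left out). In HCT116 WT clones no filter gave 2 and the replicate block of rounds gave 2, and in HCT116 KO clones the replicate block gave 8 (2 to 6 with libraries left out). Over all tested genes the block gave 2501 between the WT and 3317 between the KO clones of HCT116. Ranges in SW480 were 0 to 2 for WT and 1 to 3 for KO clones. The block changed the *BID* difference HCT116 minus SW480 too (adjusted p = 0.0563), and no other call of KO against WT or WT level. Causes of these moves were not tested. Clone means leave fewer units and also take the error from the spread between clones. Over all genes, those passing KO against WT ranged from 0 to 1229 in HT29 (382 in the reported fit), from 426 to 2961 in HCT116 (2154) and from 3789 to 8139 in SW480 (7857), lowest with clone means and highest with DESeq2. At the depth here *BMF* in HCT116 and *BCL2* and *BIK* in HT29 rest on few reads.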
